A study of Mus musculus with 3 samples.

Results

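The dystrophin glycoprotein complex is described here through 8 of its genes, Dmd, Utrn, Dag1, Sgca, Sgcb, Sgcd, Dtna and Sspn, in skeletal muscle of Mettl21c LacZ/LacZ mice and of wild-type mice. A probe was taken when the RefSeq accession in its array annotation, without version, belonged to 1 of these genes, which gave 15 of the 55681 probes on the array, printed as 16 spots. Of these, 10 probes from 7 genes were bright enough to be tested, and the 5 others, which include every Dmd probe, are given by their values. None of the 10 differed between genotypes at an adjusted p under 0.05, a level reached by 1 of all 8394 tested probes (0.0119%). At an unadjusted p under 0.05, 2 of the 10, both of Sgca, were lower in KO, as were 8.01% of all tested probes. The widest 95% intervals of the log2 ratio of KO over WT ran down to -0.42 and up to 0.36.

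The complex joins the actin cytoskeleton of a muscle fibre to the extracellular matrix through the fibre's membrane. Dystrophin, or in its place the related protein utrophin, binds actin inside the fibre and holds β-dystroglycan, whose partner α-dystroglycan binds laminin outside. The sarcoglycans and sarcospan form a subcomplex in the membrane beside dystroglycan, and dystrobrevin connects the complex to signalling proteins. In humans, loss of dystrophin causes Duchenne muscular dystrophy and loss of a sarcoglycan causes a limb-girdle muscular dystrophy.

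The samples were total RNA of SOL muscle, read here as the soleus, a hindlimb muscle rich in slow fibres. All mice were male, of strain C57BL/6, aged 8 weeks and fed regular chow. The KO group carried the genotype Mettl21cLacZ/LacZ, a LacZ allele on both copies of a gene for a muscle lysine methyltransferase, and the WT group was wildtype. The labels give 3 biological replicates of each genotype and do not say whether RNA of several animals was pooled, so p-values measure the spread between these samples. The 3 arrays were Agilent arrays with 2 colours on 1 slide, each with a WT sample in Cy3 and a KO sample in Cy5. Cy5 always carried the KO sample, so a dye preference of a probe cannot be told apart from the genotype. RNA came from whole muscle, and fewer cells of a type cannot be told apart from less RNA per cell.

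Signals well above background came from 20.4% to 23.6% of the 59305 non-control spots in WT samples and from 22.5% to 22.9% in KO samples. As a check of the labels, the mean log2 ratio of Mettl21c itself was -2.45 (SD 0.48, n = 3, limma adjusted p = 0.0300), and without array 3 it was -2.45 with an adjusted p of 0.0869. Where its probe lies relative to the altered part of the gene is not given in the sources used here. It was the single probe that passed, and it was tested only through the WT samples, in which it was higher. Of the 14 skeletal muscle fibre markers listed, 11 had a tested probe. The other 3, Ckm, Myh7 and Tnni1, had processed WT signals of 6452 or more on arrays 1 and 2.

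Array 3 stood apart from the other 2 before any comparison of genotypes. Over all spots, the log2 WT intensity correlated at r = 0.968 between arrays 1 and 2, at 0.763 between arrays 1 and 3 and at 0.759 between arrays 2 and 3, where the points share the probe set and the slide. Within windows of 21 by 21 spots, r lay between 0.872 and 0.992 for arrays 1 and 2. For arrays 1 and 3 the windows ranged from -0.089 to 0.981, with the lowest values at low column and high row numbers. The mean of both local correlations with array 3, called the local correlation below, was under 0.9 at 51.6% of the non-control spots. Ckm, the muscle creatine kinase and among the most abundant fibre transcripts, shows the size of this: its processed WT signals were 14400, 11030 and 51.4 on arrays 1 to 3, at a local correlation of 0.412. Of the 10 tested member probes, 3 lay in such regions, 1 each of Sgca, Sgcb and Dtna, and each is given below with and without array 3. Whether array 3 values in such regions belong to the named probe was not tested, so they may not be readings of it, and this holds for Dtna, Ckm, Sgca A_55_P2020706 and Sgcb A_55_P2016119. Around the Sgca spot, array 3 correlated at 0.442 with the spots of array 1 lying 1 row above and 1 column to the left. The local correlation there, without a shift, was 0.589. For the Sgcb and Dtna spots the same shift gave 0.186 and 0.260, against local correlations of 0.762 and 0.541. A shift of 1 row above without a column shift gave 0.24, 0.13 and 0.32 for the Sgca, Sgcb and Dtna spots. The shifted values compare array 3 with array 1 alone, while the local correlation averages over arrays 1 and 2.

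**Figure D1:**
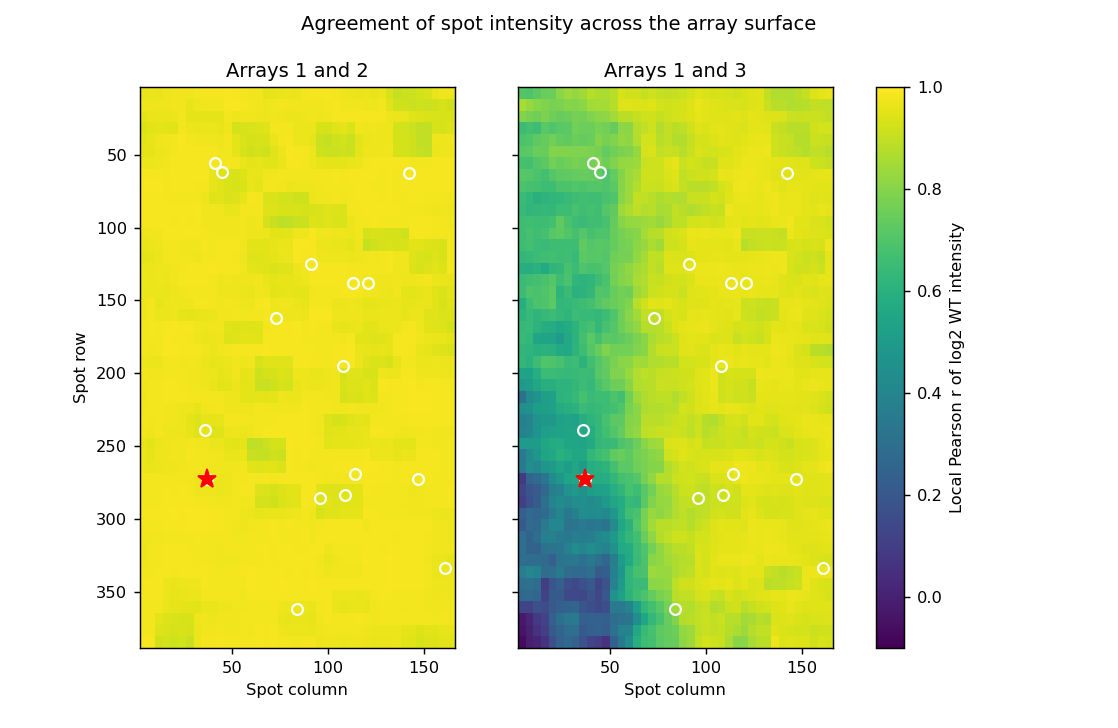
Local Pearson r of the log2 WT intensity, by spot column and row, for arrays 1 and 2 (left) and arrays 1 and 3 (right); white circles are the 16 member spots and the red star is Dtna. The left map stays at 0.872 or above, while the right map falls toward low columns and high rows, where the Dtna spot lies.

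Promoter sequences are shown for the member with the lowest ratio, Sgca, the member with the highest, Utrn, and for Dmd, whose probes gave no measured level and of whose 2 windows the one with E-boxes is shown. RefSeq windows on build GRCm38.p6, from 250 bases before a transcription start to 50 after it, were matched for Dmd, Utrn, Dag1, Sgca, Sgcb, Sgcd and Sspn, 10 windows in all. Each is printed 5′ to 3′ on the strand of its gene. Capitals mark E-boxes, the CANNTG motif bound by factors such as MyoD and myogenin, and in Dmd also a CArG box, the motif of serum response factor. The Sgca window is chr11:94976278-94976577 on the minus strand, the Utrn window chr10:12861686-12861985 on the minus strand and the Dmd window chrX:82948620-82948919 on the plus strand.
Sgca: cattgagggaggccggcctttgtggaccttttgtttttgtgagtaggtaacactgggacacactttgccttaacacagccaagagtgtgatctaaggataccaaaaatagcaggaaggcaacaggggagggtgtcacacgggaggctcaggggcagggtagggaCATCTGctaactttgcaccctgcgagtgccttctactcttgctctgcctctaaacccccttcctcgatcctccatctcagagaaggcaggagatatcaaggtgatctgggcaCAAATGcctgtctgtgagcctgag
Utrn: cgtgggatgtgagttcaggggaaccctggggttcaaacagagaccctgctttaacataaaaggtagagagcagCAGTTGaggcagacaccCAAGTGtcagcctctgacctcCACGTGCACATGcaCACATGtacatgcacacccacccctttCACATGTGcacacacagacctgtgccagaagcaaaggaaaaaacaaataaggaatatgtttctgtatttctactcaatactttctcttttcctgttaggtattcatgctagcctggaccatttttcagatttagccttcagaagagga
Dmd: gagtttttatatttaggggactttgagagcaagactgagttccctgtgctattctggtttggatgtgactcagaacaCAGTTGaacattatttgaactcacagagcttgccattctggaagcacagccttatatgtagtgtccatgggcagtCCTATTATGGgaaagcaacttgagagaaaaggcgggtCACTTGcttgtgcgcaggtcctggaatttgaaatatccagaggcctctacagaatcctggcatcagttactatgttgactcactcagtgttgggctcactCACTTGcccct

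The Sgca window held 2 E-boxes, starting 86 bases before the start site and 27 bases after it. In the Utrn window there were 7 matches, some overlapping, between 177 and 96 bases before the start site. The Dmd window shown held 3 E-boxes and 1 CArG box, 98 bases before the start site, while the second Dmd window held 0 of either and 3 GC boxes. Both strands were searched. E-boxes occurred in 7 of the 10 member windows and in 72.3% of all 32851 mouse windows of the same length, and the CArG box in 1 of 10 against 1.63%. The MCAT motif CATTCC was in 3 member windows, 1 of Sgcd and both of Sspn, against 14.7% of all windows. The GC box GGGCGG was in 5 of 10 against 35.7%, and TATAAA in 2 of 10 against 13.6%. Both Dag1 windows overlap and share E-box and GC box matches. Counted by gene, E-boxes were in 6 and GC boxes in 4 of the 7 genes with a window. The N-box TTCCGG, known from the promoters of synaptic muscle genes, was in none of the 10 and in 14.9% of all windows. These matches are descriptions of letters and not evidence of binding.

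Dystrophin stands at the centre of the complex, and none of its 3 probes was well above background, on any array or for either genotype. With spots of a probe averaged, their processed signals ranged from 20.96 to 78.96 in WT and from 22.32 to 42.84 in KO. For probe A_55_P2167913 the WT signals were 78.2, 71.4 and 31.9 on arrays 1 to 3 and the KO signals 22.3, 29.0 and 27.3. Every WT signal of that probe was above every KO signal, at a brightness where neither channel was separated from background. For A_55_P2167922 and A_52_P306697 the groups overlapped. How often untested probes show such an order was not counted. Without the filter on dim probes the 3 mean log2 ratios were -0.042, -0.012 and 0.0073, with adjusted p of 0.837 or more in limma. Their widest 95% interval ran from -0.11 to 0.12 on a scale whose offset of 50 shrinks the ratio of so dim a probe. No change in Dmd RNA was detectable with these probes, and no level can be given for it.

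**Figure D2:**
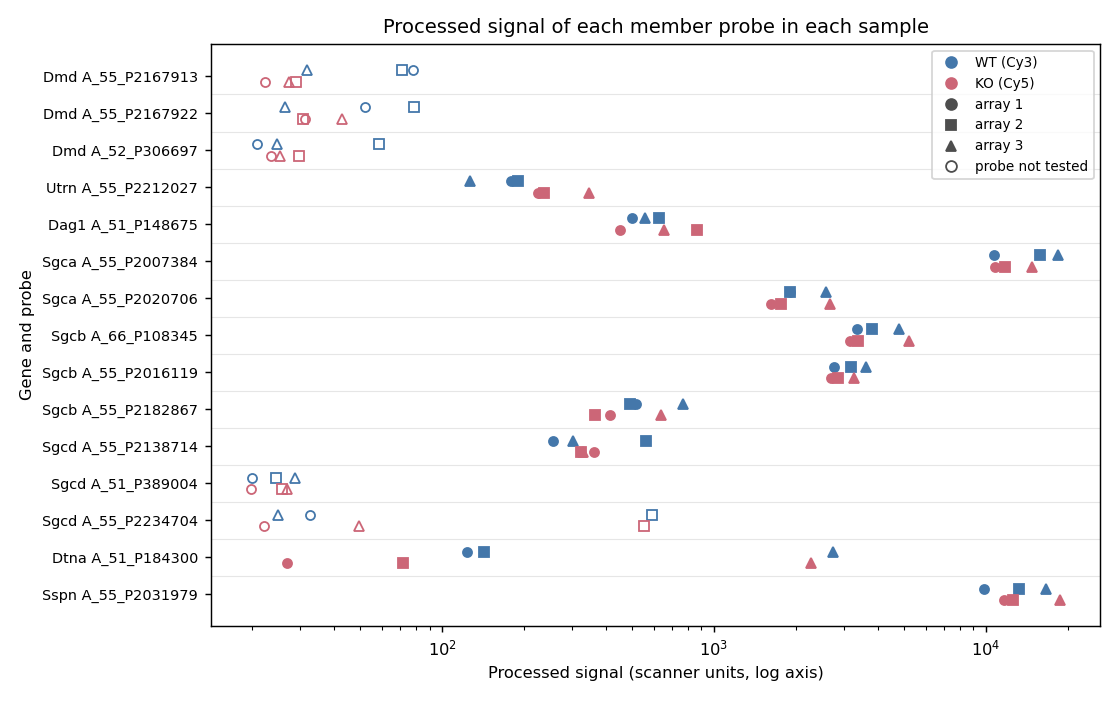
Processed signal of each of the 15 member probes, in scanner units on a log axis, with WT in blue, KO in red and a symbol for each array; open symbols are probes that were not tested. The 3 Dmd probes reach at most 78.96, and the Dtna probe reaches at most 142.4 on arrays 1 and 2 and at least 2265 on array 3. Signals of different probes are not comparable as levels.

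Utrophin, the autosomal relative of dystrophin that is concentrated at the neuromuscular junction of adult muscle, had the highest mean ratio of the 10 probes. Its probe A_55_P2212027 gave processed WT signals of 179.2, 190.2 and 126.6 and KO signals of 225.6, 236.6 and 347.9 on arrays 1 to 3. All 3 KO samples were above all 3 WT samples, as they were for 2.54% of all tested probes. This was a dim probe, tested only through the KO samples in which it was higher, well above background in 2 of 3 WT samples, not in that of array 3, and in 3 of 3 KO samples. The log2 ratios were 0.084, 0.14 and 0.28, with a mean of 0.17 (SD 0.10, n = 3, 95% interval -0.0033 to 0.34, limma adjusted p = 0.375). It was the only member above 0 on all 3 arrays, as were 17.3% of all tested probes. The mean was 0.11 without array 3 (adjusted p = 0.568), where the Utrn spot had a local correlation of 0.966.

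How far Utrn stood from 0 depended on the scale. Ratios of the processed signals, to which no offset is added, gave Utrn log2 ratios of 0.33, 0.32 and 1.46 (mean 0.70, SD 0.66, n = 3). With the median of the tested probes of each array set to 0 and no loess, the mean was 0.47 and passed the threshold (limma adjusted p = 0.0131). Utrn remained above 0 under all 16 alternatives that gave it a value, from 0.029 to 0.70. These reuse the same arrays, and the reported fit took Utrn only through its higher channel, so the constant sign is not separate support. That centring was the only alternative under which Utrn passed, with 3042 of all 8394 tested probes passing there.

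Dag1 encodes the precursor that is cleaved into α- and β-dystroglycan. Probe A_51_P148675 gave processed WT signals of 501.6, 629.5 and 559.0 and KO signals of 453.2, 865.3 and 655.8. The groups overlapped. Its log2 ratios of -0.062, -0.15 and 0.10 averaged -0.034 (SD 0.13, n = 3, 95% interval -0.22 to 0.15, limma adjusted p = 0.887). On array 2 the local background of the KO channel beside this spot was 34, against 17 as the median of that channel. There the processed log2 ratio was 0.46 and the ratio used here -0.15. The mean changed sign under 5 of 17 alternatives.

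The sarcoglycans form a tetramer in the fibre membrane, of which Sgca, the α subunit, is restricted to striated muscle. It was read by 2 probes, which were the only members with an unadjusted p under 0.05. The brighter one, A_55_P2007384, had processed WT signals of 10700, 15850 and 18360 and KO signals of 10830, 11720 and 14720. The groups overlapped, because the WT sample of array 1 was as low as the KO sample beside it. Paired by array, its log2 ratios were -0.078, -0.40 and -0.19. Their mean of -0.22 (SD 0.17, n = 3) had a 95% interval of -0.42 to -0.025, an unadjusted p of 0.0328 and an adjusted p of 0.315 in limma. On this scale WT was 1.17-fold above KO. With processed signals the log2 ratios of this probe were 0.017, -0.44 and -0.32.

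The second Sgca probe, A_55_P2020706, had WT signals of 1899, 1909 and 2592 and KO signals of 1620, 1763 and 2674, again overlapping. Its 3 ratios of -0.18, -0.14 and -0.20 lay close together around a mean of -0.17 (SD 0.031, n = 3, 95% interval -0.32 to -0.016, limma adjusted p = 0.321). Unadjusted, that p was 0.0350. With processed signals its ratios were -0.23, -0.11 and 0.045, so the sign on array 3 depended on the scale. Its array 3 spot had a local correlation of 0.589. Without array 3 the mean was -0.16 with an unadjusted p of 0.0639, and for the brighter probe -0.24 with an unadjusted p of 0.0474. Both probes are of 1 gene and 1 RNA sample per channel, so they are not independent. At an unadjusted p under 0.05, 0 of the 10 member probes were higher, against 5.6% of all tested probes.

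Sgcb encodes the β subunit and was read by 3 probes, whose mean log2 ratios lay between -0.13 and -0.089. Probe A_66_P108345 gave WT signals of 3371, 3822 and 4784 and KO signals of 3159, 3387 and 5219. KO was lower than WT on arrays 1 and 2 and higher on array 3. The corresponding log2 ratios were -0.15, -0.27 and 0.040, with a mean of -0.13 (SD 0.16, n = 3, 95% interval -0.32 to 0.068, limma adjusted p = 0.559). Leaving out array 3, where its local correlation was 0.959, moved that mean to -0.21 (unadjusted p = 0.0291, adjusted p = 0.308).

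Probe A_55_P2016119 of Sgcb had WT signals of 2757, 3191 and 3621 and KO signals of 2686, 2863 and 3281, lower in KO on every array by a margin smaller than the spread between arrays. Its mean log2 ratio was -0.12 (SD 0.078, n = 3, adjusted p = 0.521 in limma), and it was also -0.12 without array 3, whose spot had a local correlation of 0.762. The dimmest Sgcb probe, A_55_P2182867, had WT signals of 516.4, 491.5 and 766.5 against 415.1, 364.1 and 637.0 in KO. Its ratios of -0.074, -0.089 and -0.11 had the smallest SD of the 10 member probes, 0.016, with a mean of -0.089 (n = 3, 95% interval -0.24 to 0.063, limma adjusted p = 0.606). Without the offset its processed ratios were -0.32, -0.43 and -0.27. All 3 Sgcb means were below 0 after loess, and 2 of the probes were below 0 on every array, but the mean of A_55_P2182867 was 0.028 without loess, when each array's tested probes were centred at 0.

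Sgcd encodes the δ subunit, and 1 of its 3 probes was tested. Probe A_55_P2138714 gave WT signals of 256.2, 562.2 and 303.4 and KO signals of 361.8, 323.7 and 328.6. The KO samples lay within the range of the WT samples, which was set by the WT sample of array 2. The log2 ratios of 0.11, -0.21 and 0.13 averaged 0.011 (SD 0.19, n = 3, 95% interval -0.20 to 0.22, limma adjusted p = 0.971). Its sign changed under 7 of 17 alternatives. Probe A_51_P389004 was not well above background in any sample, with signals of 19.86 to 28.73. Probe A_55_P2234704, matched to a predicted Sgcd transcript, carried an outlier flag on array 2, where it read 593.4 in WT and 552.2 in KO, against 22.07 to 49.63 on the other arrays.

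Sspn encodes sarcospan, a membrane protein related to tetraspanins that sits with the sarcoglycans. Probe A_55_P2031979 gave WT signals of 9818, 13280 and 16580 and KO signals of 11620, 12530 and 18730, and the groups overlapped. KO was above WT on arrays 1 and 3 and below it on array 2, with log2 ratios of 0.20, -0.092 and 0.31. The mean was 0.14 (SD 0.21, n = 3, 95% interval -0.082 to 0.36, limma adjusted p = 0.573). Leaving out array 3 moved it to 0.052. It lay above 0 except when loess was left out, where it was -0.35 with centring on the tested probes (adjusted p = 0.0418) and -0.79 with median centring (adjusted p = 0.00240).

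Dtna encodes α-dystrobrevin, a cytoplasmic member, and of the 10 tested member probes its single probe was moved most by array 3. Probe A_51_P184300 had processed WT signals of 123.3, 142.4 and 2748 and KO signals of 27.0, 71.6 and 2265. Array 3 was at least 19.3-fold above both other arrays in both channels. Such a jump of 10-fold or more in both channels was seen on array 3 for 73 of 8394 tested probes, on array 1 for 4 and on array 2 for 5. The Dtna spot lay where the local correlation was 0.541. Its raw median WT intensities were 40, 39 and 277, while the spot 1 row above it read 198, 149 and 98.5 and the spot 1 row above and 1 column to the left read 287.5, 366.5 and 446.

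The log2 ratios of Dtna were -0.11, -0.0079 and -0.45, with a mean of -0.19 (SD 0.23, n = 3, 95% interval -0.42 to 0.046, limma adjusted p = 0.468). This was the largest SD of the 10 member probes. Without array 3 the mean was -0.058 (95% interval -0.23 to 0.12, adjusted p = 0.795). KO signals were well above background on 1 of 3 arrays, array 3, and WT signals on 3. With processed signals the ratios were -2.19, -0.99 and -0.28, of which the first 2 compare a WT signal with a KO signal not well above background. A difference in Dtna between genotypes was not detectable with this probe.

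**Figure D3:**
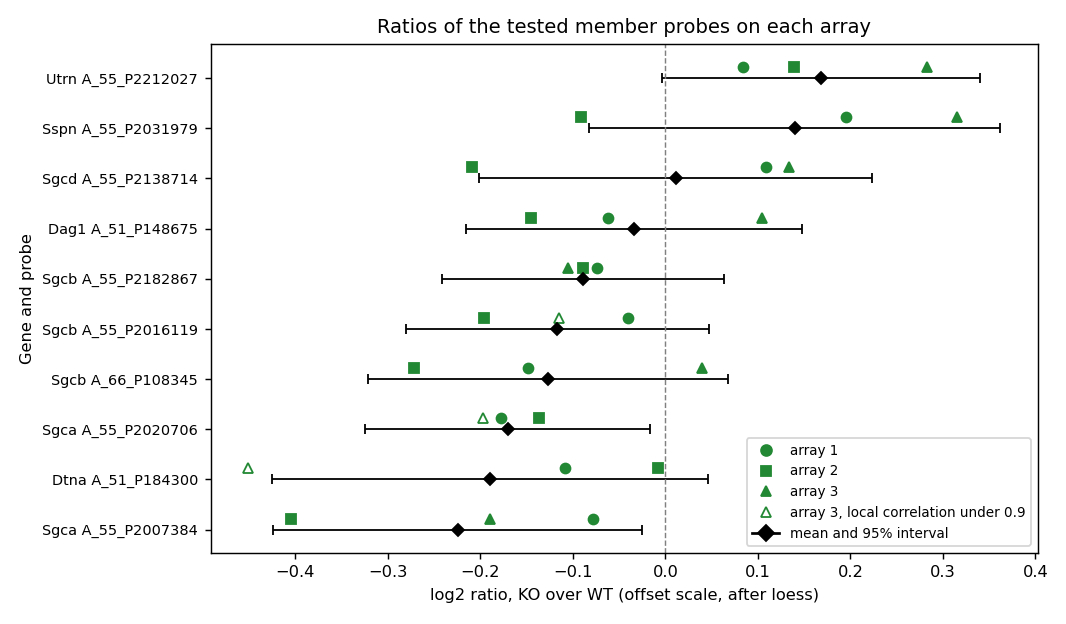
Log2 ratio of KO over WT of the 10 tested member probes on each array (green symbols, open where array 3 had a local correlation under 0.9), with the mean and its 95% interval from limma in black. The intervals of the 2 Sgca probes end at -0.025 and -0.016, and the other 8 include 0.

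Of the 10 tested probes, 8 were well above background in all samples of both genotypes, Utrn was tested through its KO samples and Dtna through its WT samples. Over the 10, 7 means lay below 0 and 3 above, while 4305 of all 8394 tested probes lay below 0. Both Sgca and all 3 Sgcb probes are among the 7. The member median was -0.10, against -0.0032 for all tested probes. On the single arrays the member median was -0.068, -0.14 and -0.033. Array 2 gave the lowest of the 3 ratios for 6 of the 10 probes. Ratios were below 0 on all 3 arrays for 5 member probes, both of Sgca, 2 of Sgcb and that of Dtna, as they were for 18.6% of all tested probes. The members are few, and those 5 probes come from 3 genes. With processed signals, 3 member probes were below 0 on all 3 arrays. On array 3, Sgca A_55_P2020706, Sgcb A_55_P2016119 and the Dtna probe lay at local correlations under 0.9. The Dtna probe was tested only through the WT samples, in which it was higher. The unadjusted p values of the 10 reached down to 0.0328, and their adjusted p values ran from 0.315 to 0.971 in limma.

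The normalisation within arrays decided whether any member passed. With each array centred on the median of all its non-control spots in place of loess, 7 of 10 member probes passed. All 7 were lower in KO. Of all 8394 tested probes, 5468 passed lower and 0 higher. That setting moved the median of all tested probes to -0.44. Centred instead on the tested probes, which sets this median to about 0, 6 of 10 member probes passed. Of all 8394 tested probes, 1226 passed higher and 1816 lower. In that setting Sgca was at -0.71 (adjusted p = 0.0124) and -0.33 (adjusted p = 0.0237), 2 Sgcb probes were at -0.40 and -0.37, Sspn was at -0.35 and Utrn at 0.47. Under the 15 other alternatives 0 member probes passed, and with the scanner's own dye-normalised signals 0 of 8394 probes passed in limma, 938 of them at an unadjusted p under 0.05.

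**Figure D4:**
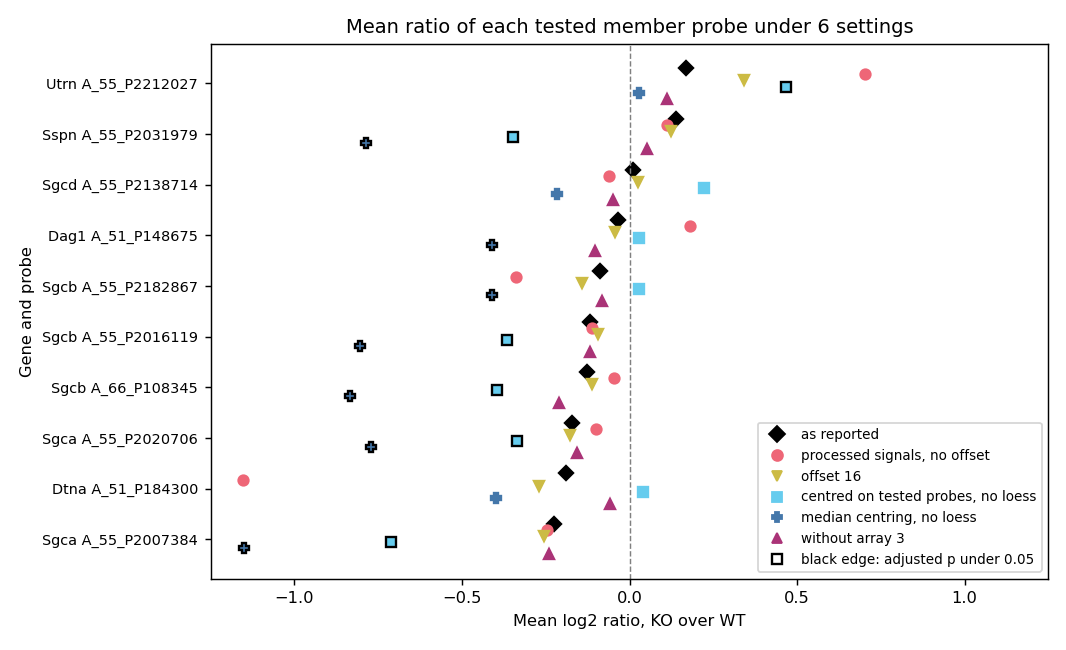
Mean log2 ratio of KO over WT of each tested member probe under 6 settings, with a black edge where the limma adjusted p was under 0.05. Black edges occur only in the 2 settings without loess, and the Dtna mean moves from -0.19 to -1.15 with the processed signals.

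Of the 11 remaining subunit genes of the complex, 3 had tested probes, 5 in all, and 0 passed. Their median log2 ratio was -0.056, with 2 above 0 and 3 below. Cav3, the muscle caveolin that binds β-dystroglycan, had ratios of 0.48, 0.41 and 0.32 (mean 0.40, SD 0.080, n = 3, adjusted p = 0.0950 in limma), but its mean was -0.061 with processed signals and -0.75 with median centring.

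Laminins and other matrix partners of dystroglycan had 14 tested probes, of which 0 passed and 8 were above 0, with a median of 0.045. The lowest p belonged to Col6a2, a chain of collagen VI, at -0.36 (SD 0.25, n = 3, limma adjusted p = 0.219) and at -0.51 without array 3. Lama2, the laminin chain of the muscle basement membrane, was at -0.23 (SD 0.085, n = 3, limma adjusted p = 0.247), and Hspg2, which encodes perlecan, at 0.27 (SD 0.16, n = 3, limma adjusted p = 0.240). The last 2 lay at local correlations under 0.9, and without array 3 they were at -0.22 and 0.35. Among the enzymes that build the sugar chain by which α-dystroglycan binds laminin, 0 of 10 tested probes passed. Of these, 9 had means below 0, against 4305 of all 8394 tested probes, and the amounts were small, with a median of -0.032. Pomk, a kinase of the core sugar, had the lowest p, at -0.15 (SD 0.038, n = 3, limma adjusted p = 0.375).

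Linkers of the costamere and the integrin axis, which anchor the same membrane to the sarcomere, had the lowest median of these lists, -0.15. The median was -0.018, -0.094 and -0.25 on arrays 1 to 3 and -0.091 without array 3. Of the 15 tested probes, 12 had means below 0, against 4305 of all 8394 tested probes. At an unadjusted p under 0.05, 5 of the 15 were lower, against 8.01% of all tested probes. None passed. Both probes of Actg1, the cytoplasmic γ-actin that dystrophin binds at the membrane, were lowest, at -0.62 (SD 0.081, n = 3, limma adjusted p = 0.0669) and -0.72 (SD 0.35, n = 3, adjusted p = 0.0998). Both were at -0.61 without array 3, at local correlations of 0.965 and 0.860. The former passed with the smaller offset of 16, where it was at -0.85 (adjusted p = 0.0180). Transcripts of γ-actin and β-actin are closely alike, and whether these probes tell them apart was not tested. Des, which encodes desmin, was at -0.33 (SD 0.21, n = 3, limma adjusted p = 0.219) and at -0.23 without array 3, at a local correlation of 0.775.

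Membrane repair and caveolar genes had 8 tested probes with a median of 0.048, and upstream regulators of utrophin and membrane stability 6 with a median of 0.050. In both lists 0 passed. Cavin1, a coat protein of caveolae, was at 0.26 (SD 0.18, n = 3, limma adjusted p = 0.277) and Anxa6, an annexin, at -0.20 (SD 0.14, n = 3, limma adjusted p = 0.330), or at 0.22 and -0.12 without array 3. Trim72, which encodes the repair protein MG53, was at 0.18 (SD 0.078, n = 3, limma adjusted p = 0.334). Srf, the factor that binds CArG boxes, was at 0.27 (SD 0.23, n = 3, limma adjusted p = 0.306; 0.34 without array 3, at a local correlation of 0.692), and Myog and Myod1, which bind E-boxes, at 0.11 and -0.073. Over the 6 lists together, 0 of 58 tested probes from 50 genes passed in limma, and 5 (8.62%) were higher and 9 (15.5%) lower at an unadjusted p under 0.05, against 5.6% and 8.01% of all tested probes.

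**Figure D5:**
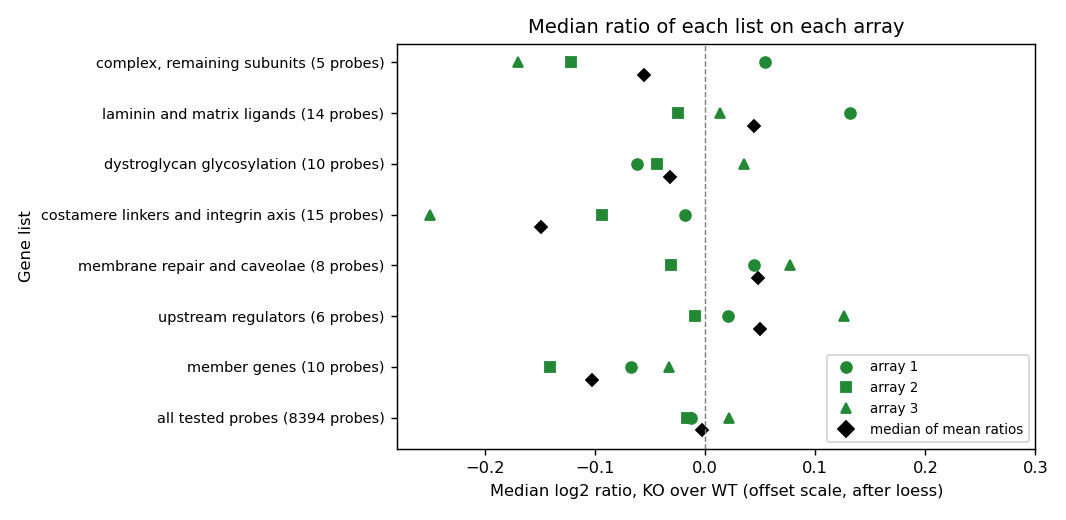
Median log2 ratio of KO over WT of the 10 tested member probes, of 6 further lists of genes that act with the complex and of all tested probes, on each array (green) and for the mean over arrays (black). The 10 tested probes, from 7 of the 8 member genes, have a negative median on each of the 3 arrays, from -0.14 to -0.033, and 5 of the 6 further lists have array medians on both sides of 0.

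Markers of other cells were read beside these values. The summed processed signal of the 14 tested fibre marker probes ranged from 310600 to 449000 in WT and from 346100 to 409000 in KO, so the groups overlapped. The median log2 ratio of these probes was 0.14, or 0.23, -0.053 and 0.048 on arrays 1 to 3, with 9 means above 0 and 5 below. With processed signals that median was -0.13. All 6 tested macrophage probes had means below 0, with a median of -0.24, or -0.31, -0.27 and 0.040 on arrays 1 to 3. Their summed signals were 7584 to 15340 in WT and 6849 to 10540 in KO, while Adgre1, Lyz2 and Ptprc had no tested probe. The 4 tested smooth muscle probes also had means below 0, with a median of -0.10, or 0.072, -0.57 and 0.22 on arrays 1 to 3. Their summed signals were 18660 to 43270 in WT and 19930 to 23060 in KO. Means below 0 were found for 4305 of all 8394 tested probes. The 3 tested red blood cell probes were above 0, with a median of 0.21 and summed signals of 11140 to 18360 in WT and 13780 to 32570 in KO, and 2 of them had an unadjusted p under 0.05. Hba-a1, an α-globin gene, was at 0.77 (SD 0.34, n = 3, limma adjusted p = 0.0950) and at 0.67 without array 3, at a local correlation of 0.524. Of the 5 tested adipocyte probes 4 were above 0, with a median of 0.13, or 0.037, -0.15 and 0.39 on arrays 1 to 3. Their summed signals were 4911 to 7636 in WT and 7840 to 8677 in KO and did not overlap. How often such sums separate was not counted, and Retn, 1 of these genes, lay at a local correlation of 0.545. Without array 3 the adipocyte median was -0.037. None of these marker probes passed the threshold, and of the 14 fibre probes 4 were higher and 3 lower at an unadjusted p under 0.05, against 5.6% and 8.01% of all tested probes. Their part in the member ratios was not tested.

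The tested probes whose 3 array ratios lay nearest to those of Sgca A_55_P2007384 were found by Euclidean distance among 6523 probes of other named genes. They were Ppip5k1 at a distance of 0.045, Il6st at 0.045, Htra2 at 0.050, Psmb7 at 0.052 and Pdcd2l at 0.053. Il6st encodes the gp130 receptor subunit shared by interleukin-6 family cytokines, and Psmb7 a catalytic subunit of the proteasome. Over 3 arrays such distances only describe the ratios.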

How the data were processed

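The deposited scanner files hold, per the file headers, the median intensity and local background of every spot in both channels, quality flags and a processed signal that Feature Extraction 12.0.3.1 background-subtracted and dye-normalised, while the submitters' processing notes name version 11.5. The log10 ratios of the deposited series matrix matched the scanner files' own log10 ratios, KO over WT, within 5e-10 on arrays 1 and 2 and within 0.0050 on array 3, so their scale and direction are known, and their column medians were 0. The build behind the array design is not given in the sources used here.

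Ratios were computed from median intensities with normexp background correction (offset 50) and loess within each array, with control spots and outlier-flagged spots at weight 0, in limma 3.58.1 under R 4.3.3. Flagged spots were then left out, and 0 spots were saturated. Tested were the 8394 probes with a value on every array and, in either channel, signal well above background on each of the 3 arrays. The offset shrinks ratios of dim probes. The mean ratio of each probe was tested against 0, two-sided, with eBayes and Benjamini-Hochberg adjustment over all tested probes, at 0.05. The fit was tested on simulated data first. Probes were named by matching accessions to RefSeq transcripts of GRCm38.p6 (28664 of 29472 matched), and promoter windows come from RefSeq on the same build. An array holds 1 WT and 1 KO sample and is the unit of the fit, so the pairing is by design. The number of arrays limits the precision.

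Named were every member probe, Mettl21c, the 3 tested probes of smallest p from each further list and the 5 probes nearest to the member whose mean ratio lay farthest from 0. Of the further lists, those with most bearing on the members are described, and some genes are not reported here. Ckm was named after its values were seen. The members and lists were chosen with earlier results of these data known. Alternatives changed the background correction, offset, normalisation, source of the ratio, filter, flags, probe choice, moderation, weights, pairing and arrays used. Leaving array 3 out where its local correlation was under 0.9 was added after seeing the data.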

Additional observations from a re-analysis of the deposited data

How the results depend on the processing

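Member probes had 16 changes of sign in 165 comparisons with alternatives. The 15 alternatives with loess or the scanner's own normalisation passed 0 member probes, while median centring passed 7 and centring on tested probes 6. Over all probes, against 1 in the reported fit, 18 passed with offset 16, 3 without background subtraction, 5468 with median centring, 3042 with centring on tested probes, 0 with processed signals, 0 with the series matrix, 0 without the filter on dim probes, 0 with both channels above background, 3 with the brightest probe per gene, 79 with robust and trended eBayes, 38 with array weights, and 18 with array 3 left out where its local correlation is low. Leaving out 1 array gave 0 to 10. At an unadjusted p under 0.05 these settings gave 321 to 5888 probes. In the further lists, against 0, 1 probe passed with offset 16, 41 with median centring, 30 with centring on tested probes, 2 with robust and trended eBayes, 1 with array weights, 1 with array 3 left out where its local correlation is low, and 0 to 1 without 1 array. Under both centrings 8394 probes were tested, 10 of them of members and 58 in the further lists. The probes of those lists passed with loess were of Actg1.

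Mettl21c kept its direction and missed the threshold with processed signals (-6.23), the series matrix (-6.22), no filter (-2.45) and without array 3, with a range of -2.70 to -2.21 over the arrays left out. With both channels required above background, its probe was not among those tested. The pairing of channels on an array was dropped in 1 alternative: with no replicate block Mettl21c was at -2.45 (limma adjusted p = 0.754), and 0 probes passed.

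The sign of the mean changed for members near 0. Dag1 was at 0.15 without background subtraction, 0.029 with centring on tested probes, 0.18 with processed signals, 0.18 with the series matrix and -0.10 to 0.022 without 1 array. Sgcd was at -0.027 without background subtraction, -0.22 with median centring, -0.061 with processed signals, -0.061 with the series matrix, -0.037 with array weights and -0.050 to 0.12 without 1 array. Centring on tested probes put Sgcb A_55_P2182867 at 0.028, Dtna at 0.039 and Sspn at -0.35, and median centring put Sspn at -0.79. The causes were not tested.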
